A study of Ovis aries with 26 samples.

Results

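Acinar cells make and store the digestive enzymes of the pancreas. They are large secretory cells that fold enzymes in the endoplasmic reticulum (ER), pack them as inactive precursors in zymogen granules and release them into the ducts when cholecystokinin or acetylcholine reaches their receptors. The bicarbonate-rich fluid that carries the enzymes away comes mainly from duct cells through CFTR, the chloride channel that is lost in cystic fibrosis, where the acini are replaced by cysts and fibrosis before and after birth. The cells described here come from single-cell RNA sequencing of sheep pancreas. They were chosen by their AQP8, a water channel of acinar cells: among barcodes with over 200 and under 6000 detected genes and under 25% mitochondrial transcripts, a cell was taken when it held at least 5 AQP8 molecules (unique molecular identifiers, UMIs), when these came to at least 300 per 1000000 of its UMIs, and when it held fewer than 3 UMIs each of CHGA, PECAM1 and DCN, which mark endocrine, endothelial and stromal cells. This gave 28856 acinar cells among 79510 kept cells and 109501 barcodes. Of 29998 kept cells past both AQP8 thresholds, 1142 were left out for CHGA, PECAM1 or DCN.

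The samples were pancreas from American Romney fetuses at 80 and 120 days of gestation and from lambs at term, in 26 libraries from 23 animals and 6 groups. The WT group had 4 fetuses at 80 days (all male), 3 at 120 days (replicates 1 and 3 male, 2 female) and 4 lambs at term (replicates 1, 2 and 4 male, 3 female). At 80 days WT replicates 2 and 4 are labelled HZ, that is CFTR+/-, and the study's text gives replicates 2 to 4 as triplets. The CFTR-/- group had 3 male fetuses at 80 days, 6 fetuses at 120 days (replicates 1 to 4 male, 5 and 6 female) and 3 lambs at term (replicates 1 and 2 female, 3 male). The study's text gives the WT animals of every age as naturally bred, the female CFTR-/- animals as naturally bred and the male CFTR-/- animals as clones, and describes its clones as made from 1 male fibroblast line targeted in exon 2. All CFTR-/- fetuses at 80 days are therefore clones, and at that age genotype cannot be told apart from cloning or from the genome of the donor line. At the other ages sex cannot be told apart from breeding within this genotype. CFTR-/- replicates 5 and 6 at 120 days are twins in that text, and by their animal numbers WT replicates 1 and 2 and CFTR-/- replicates 2 and 3 at 120 days and CFTR-/- replicates 2 and 3 at 80 days may also have shared a dam. The tests count each as 1 animal. The comparisons ask how the acinar cells of CFTR-/- animals differ from those of WT animals at each age, and how acinar cells change between ages in each genotype.

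The animals had 71 to 4462 acinar cells each, apart from CFTR-/- replicate 3 at 120 days, whose 13 cells were left out of every comparison of genes, so that 22 animals remained. Their summed acinar counts ran from 2277490 to 131675062 UMIs. CFTR-/- replicate 1 at 120 days and replicates 1 and 3 at term had a pair of libraries each, which were summed. CFTR-/- replicate 1 at term stood apart: 66.8% of its 4462 acinar cells had under 1% mitochondrial UMIs, and these 2979 cells had a median of 1261 detected genes, against 3294 in its other 1483 acinar cells. CFTR-/- replicate 1 at 80 days had 46.5% of its 71 cells under 1%, and WT replicate 3 at 80 days 39.9%. In the remaining animals of the fits the share was between 2.16 and 29.1%. A pair of libraries shared at most 6 acinar cell barcodes.

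The label was checked on genes that the rule did not use. CTRC (chymotrypsin C), CEL (bile salt-stimulated lipase), CLPS (colipase) and SYCN (syncollin, a zymogen granule protein) were higher per 1000000 UMIs in the acinar cells than in the other kept cells of the same animal in 22 of 22 animals, with median ratios of 4.78, 5.37, 5.52 and 5.04. AQP8 itself had a median ratio of 7.09, which is no check, since the cells were taken by it. Transcripts of other cells were also read in acinar cells, and the reverse. With each cell thinned to 5000 UMIs, CEL was found in 98.8 to 100% of acinar cells (range of group means) but also in 21.0 to 68.9% of the other kept cells, and the endocrine hormone gene GCG was found in 47.1% of WT acinar cells at 80 days (93.8% unthinned), against 75.5% of the other cells (91.6% unthinned). The immune gene SRGN was found in at most 2.36% of thinned acinar cells. Thinning left out 6 to 105 acinar cells per group. At the edge of the rule there was no step in the content of the cells: digestive enzyme and granule genes made up a median of 15.6% of the UMIs of 618 cells with 4 AQP8 UMIs, which the rule leaves out, and 15.9% in 699 cells with 5, which it takes. The values were 14.1% in 413 cells just under 300 AQP8 per 1000000 and 14.8% in 610 cells just over it, while cells with no AQP8 UMI had 0.237%. In addition, 4758 other kept cells had an enzyme share above that of the lowest 10% of their own animal's acinar cells. The median of these was 8540.5 UMIs, and by animal it ran from 763 (WT replicate 2 at 120 days) to 45173 (WT replicate 1 at term). Whether they are acinar cells was not tested, so the rule may leave out a part of the acinar cells.

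Acinar cells formed a smaller share of the kept cells in CFTR-/- than in WT animals at each age, but at each age the animals of the groups overlapped. At 80 days the share was 37.9, 21.9, 19.9 and 22.7% in the WT fetuses, and 3.52, 26.4 and 10.1% in the CFTR-/- fetuses. At 120 days it was 52.3, 51.8 and 25.0% in WT fetuses, and ran from 1.38 to 50.4% with a median of 29.9% in the CFTR-/- fetuses, where replicates 5 and 6, the female twins, were the highest with 50.4 and 46.5%. At term it was 54.5, 45.2, 71.0 and 61.0% in WT lambs and 47.6, 17.7 and 19.1% in CFTR-/- lambs, so that only CFTR-/- replicate 1 reached the range of the WT lambs. The CFTR-/- mean was lower than the WT mean by 12.2 percentage points at 80 days (13.3 ± 11.8 against 25.6 ± 8.26%, SD, n = 3 and 4, exact two-sided permutation p = 0.229), by 13.2 at 120 days (29.8 ± 17.9 against 43.1 ± 15.6%, n = 6 and 3, exact permutation p = 0.310) and by 29.8 at term (28.1 ± 16.9 against 57.9 ± 10.8%, n = 3 and 4, exact permutation p = 0.114). The WT share was 17.5 points higher at 120 than at 80 days (exact permutation p = 0.114) and 14.8 points higher at term than at 120 days (exact permutation p = 0.229). In CFTR-/- animals the share was 16.5 points higher at 120 than at 80 days (exact permutation p = 0.238) and 1.72 points lower at term than at 120 days (exact permutation p = 0.881). None of these 7 comparisons passed a threshold of 0.05, with Benjamini-Hochberg adjusted values of 0.333 to 0.881 from the exact permutation test. With 3 against 4 animals the smallest p possible is 0.0571, and with 6 against 3 it is 0.0238. The share counts cells past the AQP8 thresholds, so a lower AQP8 level per cell lowers it as well. The median acinar cell held 748, 449.9 and 635 AQP8 UMIs per 1000000 in the CFTR-/- lambs and 801 to 1323 in the WT lambs. These medians are of cells taken by their AQP8, so they cannot show the level in cells that the rule left out. In CFTR-/- replicate 2 at term, 435 other kept cells had an enzyme share above that of the lowest 10% of its 627 acinar cells. CFTR-/- replicate 3 at 120 days, the animal at 1.38%, had the lowest total of all libraries (7841217 UMIs, with a median of 3425 per kept cell), and without it the difference at 120 days was 7.54 points. Without WT replicate 3 at 120 days, the animal at 25.0%, it was 22.3 points, and the WT difference between 120 days and term was 5.83 points. With a threshold of 1000 AQP8 per 1000000 in place of 300 the CFTR-/- mean was lower by 3.27 points at 80 days, 0.585 at 120 days and 19.6 at term. More cells of other types among the kept cells also lower the share. The study's text calls fewer erythroid cells in its naturally bred CFTR-/- animals at 120 days a likely artefact of red blood cell removal. Erythroid markers summed to 617, 193 and 62.1 per 1000000 UMIs in other kept cells of CFTR-/- fetuses at 80 days. WT fetuses of that age had 65.9 to 164. Fewer acinar cells in the tissue, a loss during digestion, more other cells and less AQP8 per cell cannot be told apart in these shares.

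**Figure D1:**
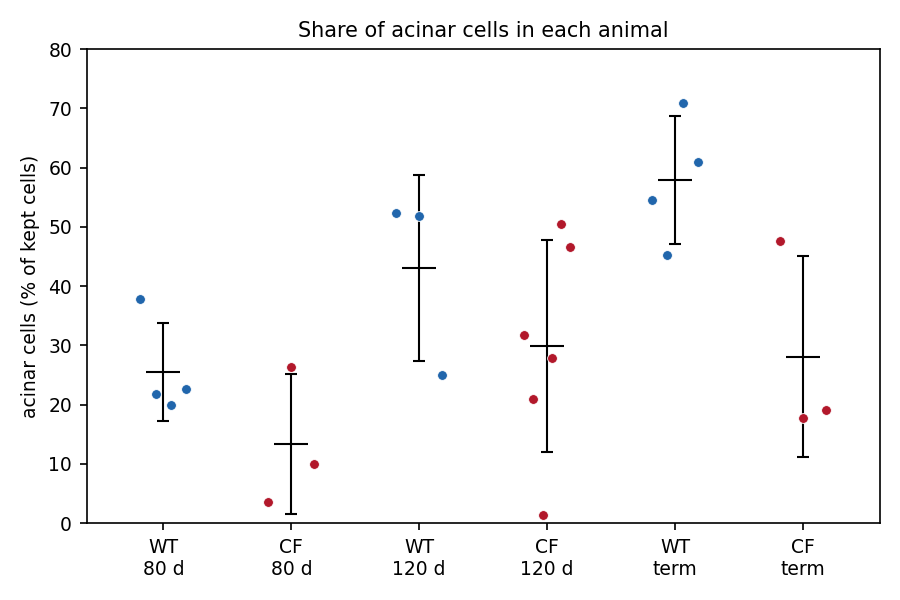
Acinar cells as a percentage of kept cells, 1 point per animal, in WT (blue) and CFTR-/- (red) animals at 80 days, 120 days and term, with the group mean and SD as bars. The CFTR-/- points lie between 1.38 and 50.4% and the WT points between 19.9 and 71.0%, with overlap at every age.

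The RNA of the acinar cells was dominated by very few genes, and its make-up changed with age in both genotypes. A single gene, LOC101117443, gave 16.1 to 25.0% of acinar UMIs in WT fetuses at 80 days, 36.7 to 43.3% at 120 days and 31.9 to 40.5% in WT lambs at term. In CFTR-/- animals it gave 10.6 to 19.9%, 23.7 to 41.2% and 25.6 to 37.5%, and the genotypes overlapped at each age. The gene is protein-coding and carries no symbol in the files. In the RefSeq gene order of another sheep assembly (ARS-UI_Ramb_v3.0) it lies next to BCAR1 and 2 places from LOC101116249, which the study's tables pair with CTRB1 (chymotrypsinogen B1), but no sequences were compared, and whether the counts of these genes share reads was not tested. It was also found in the other kept cells, at 0.759 to 15.9% of their UMIs, and the acinar share was higher in 22 of 22 animals (median ratio 5.56).

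The digestive enzyme and granule genes together, which do not include LOC101117443, made up a larger share of acinar UMIs in every lamb than in any fetus at 120 days of its genotype. The WT mean was 5.72 ± 0.893% at 80 days (SD, n = 4), 9.60 ± 2.30% at 120 days (n = 3) and 22.3 ± 6.45% at term (n = 4). The CFTR-/- mean was 7.91 ± 1.43% (n = 3), 9.45 ± 3.99% (n = 5) and 23.9 ± 3.26% (n = 3). The proteases took the largest part, with 13.1% at term in WT and 13.3% in CFTR-/- lambs, and the granule and other secreted proteins went from 0.516 to 3.47% between 80 days and term in WT and from 0.566 to 5.79% in CFTR-/- animals. Within single animals this share also varied from cell to cell: in WT replicate 2 at term the lowest 10% of acinar cells had at most 20.3% and the highest 10% at least 33.7%. Transcripts of ribosomal protein genes made up less of the RNA with age, from 31.0 ± 1.76 to 12.2 ± 2.28% in WT and from 28.3 ± 1.38 to 14.2 ± 0.820% in CFTR-/- animals. No test was made on these shares, which describe the same UMIs that the gene comparisons use.

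**Figure D2:**
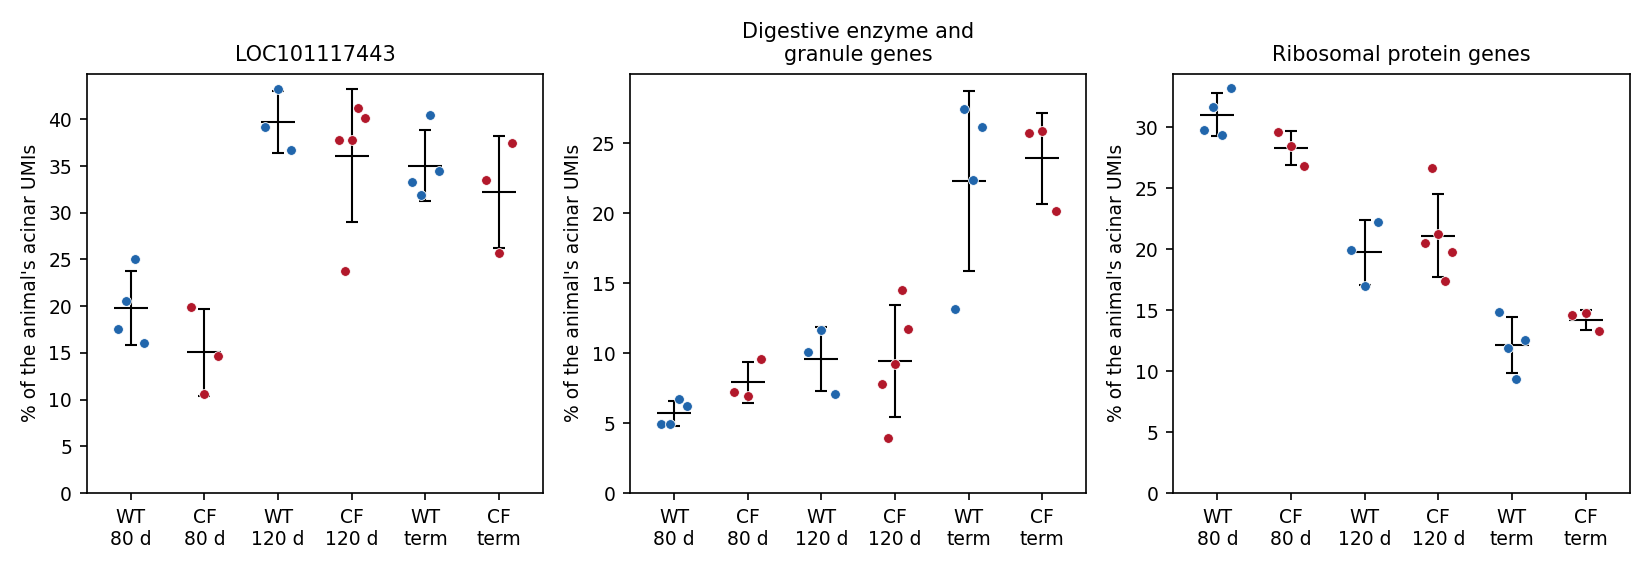
Percentage of each animal's acinar UMIs given by LOC101117443, by digestive enzyme and granule genes and by ribosomal protein genes, 1 point per animal in WT (blue) and CFTR-/- (red) groups, with mean and SD as bars. The enzyme genes stand at 22.3 and 23.9% at term, against 9.60 and 9.45% at 120 days, and the ribosomal protein genes have lower means at each later age in both genotypes.

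Because a few genes took so much of the RNA, gene levels are given as counts per 1000000 UMIs (CPM) scaled with TMM, which takes the middle of all genes as unchanged. Ribosomal protein genes were left out. The scaling matters for the comparisons of ages: with library totals in its place, the median over all genes moved by a log2 value of -1.15 between 80 and 120 days in WT and -0.94 in CFTR-/- animals, by -0.30 between 120 days and term in CFTR-/- animals, by 0.33 between CFTR-/- and WT at 120 days and by 0.14 at 80 days. Fold changes below are relative to the middle of all genes. A gene was called when its adjusted p in edgeR's quasi-likelihood test was at most 0.05, over 14520 genes tested, and "rose" and "fell" are written only of called genes. The log2 fold change is given with an approximate standard error (SE), taken as its size over the square root of the test's F statistic. The largest changes are named among called genes whose groups did not overlap, that had a symbol in the files, which REG1A, PRSS1 and others named from the study's tables do not, and reached a mean of 20 CPM in the higher group. Up to 3 called members of each list are also named, again only where the groups did not overlap. A lack of overlap in genes named by these rules was therefore fixed by their choice. A symbol that begins with LOC is a gene with no name in the files.

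AQP8, by which the cells were taken, is given as a description only. Its level without TMM was 759 ± 54.6 per 1000000 in WT fetuses at 80 days (SD, n = 4), 812 ± 46.3 at 120 days (n = 3) and 1012 ± 257 at term (n = 4), and 631 ± 90.7 (n = 3), 839 ± 208 (n = 5) and 636 ± 151 (n = 3) in CFTR-/- animals. CFTR was low in acinar cells of every group, with means of 3.72 to 9.29 per 1000000 against 48.8 to 126 in the other kept cells. CFTR transcripts were read in the CFTR-/- animals too, at 2.63 to 15.3 per 1000000 in their acinar cells. The counts come from the 3' end of the transcript, away from the targeted exon, so they do not check the genotype.

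None of the 4 other markers passed the test between CFTR-/- and WT animals at any age. CTRC, which degrades trypsin and so guards the gland against autodigestion, had 365, 152, 268 and 367 CPM in WT fetuses at 80 days and 1139, 920.2 and 2092 CPM in CFTR-/- fetuses. All 3 CFTR-/- values were above all 4 WT values, and the log2 fold change of 2.27 ± 0.59 (SE), adjusted p = 0.112 with edgeR, did not pass. It passed with the groups of that age fitted alone (2.28, edgeR adjusted p = 0.0141) and with DESeq2 (2.29, adjusted p = 0.00641), and in none of the other 18 settings. CLPS, the cofactor of pancreatic lipase, had 1357, 750.1, 7668 and 2723 CPM in WT and 689.6, 342 and 761 CPM in CFTR-/- fetuses at that age, with overlap (log2 -2.39 ± 1.10 (SE), adjusted p = 0.442). CEL and SYCN differed by log2 0.69 ± 0.40 and -0.90 ± 0.81 (adjusted p = 0.573 and 0.761). At 120 days the 4 markers had log2 differences between -0.66 and 0.07 with adjusted p-values of at least 0.935, and at term between -0.73 and 0.39 with adjusted p-values of at least 0.577. At 120 days CFTR-/- replicate 2 was the lowest animal of its group in all 4 markers, with 5624, 1378, 9214, 70210.4 and 49270.5 CPM for CLPS in replicates 1, 2, 4, 5 and 6, where the females, 5 and 6, were far above the males.

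At 80 days, 18 of 14520 genes were higher and 15 lower in CFTR-/- acinar cells, which is 0.124 and 0.103% of the genes tested. FXYD3, a small regulator of the sodium pump, had 161, 223, 287 and 203 CPM in WT fetuses and 43.2, 23.9 and 23.7 CPM in CFTR-/- fetuses, a log2 fold change of -2.88 ± 0.47 (SE), adjusted p = 0.0094. CLDN18, a tight junction claudin, had 39.6, 33.3, 40.6 and 30.3 CPM in WT and 8.09, 4.37 and 6.98 CPM in CFTR-/- fetuses (log2 -2.54 ± 0.36 (SE), adjusted p = 0.00325). Both genes were lower in every CFTR-/- fetus than in any WT fetus. CLDN18 was more abundant in acinar cells than in the other kept cells of all 7 fetuses. FXYD3 was lower in CFTR-/- fetuses also outside the acinar cells, with a mean of 46.3 per 1000000 UMIs in the other kept cells against 112 in WT fetuses. PLEKHH2 (log2 -2.34 ± 0.43) and CFLAR, an inhibitor of caspase 8 (log2 -1.02 ± 0.21), fell as well, but CFLAR passed in only 7 of 20 other settings, and with library totals it stood at -0.88 (edgeR adjusted p = 0.496).

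Among the genes that rose at 80 days, the deubiquitinase gene OTUD1 had 11.3, 18.0, 11.1 and 15.1 CPM in WT and 41.8, 53.2 and 59.0 CPM in CFTR-/- fetuses (log2 1.90 ± 0.39 (SE), adjusted p = 0.0467). HEYL, a transcription factor of the Notch pathway, went from 16.3, 13.6, 14.1 and 10.8 CPM to 37.3, 32.0 and 42.6 CPM (log2 1.44 ± 0.24 (SE), adjusted p = 0.0094). STXBP5, a syntaxin-binding protein that restrains vesicle fusion, rose by log2 1.46 ± 0.27 and the co-chaperone DNAJB2 by 1.17 ± 0.17 (adjusted p = 0.0219 and 0.00325). None of these groups overlapped. OTUD1 passed in 11 of 20 other settings and not with library totals (edgeR adjusted p = 0.0985). IRF1, a transcription factor of interferon responses, rose from at most 0.499 CPM to at least 3.60 CPM (log2 4.16 ± 0.72 (SE), adjusted p = 0.0152), with 16 UMIs in all acinar cells of the 4 WT fetuses and 154 in those of the 3 CFTR-/- fetuses, and it was lower in acinar cells than in the other kept cells of every fetus. It was the only one of 15 genes tested for inflammation and antigen presentation to pass. No gene passed among 9 proteases (median log2 0.70), 5 lipase genes (-0.49), 11 granule and secreted proteins (-0.14), 33 ER folding and export genes (-0.32) or 12 acinar transcription factors (-0.17), while the median of all genes was -0.02. The 15 immediate early and heat shock genes had a median of 1.35, with 14 above 0 and none called. Immune markers summed to 2.18 to 41.9 per 1000000 of acinar UMIs in WT and 9.56 to 64.5 in CFTR-/- fetuses, and stromal markers to 18.9 to 38.9 and 21.5 to 74.2. Duct markers summed to 193 to 259 in WT fetuses and to 213, 366 and 407 in CFTR-/- fetuses, Schwann cell markers to 0.751 to 4.47 and to 3.95, 13.1 and 15.8, and mural markers to 14.5 to 27.7 and 25.8 to 45.7. Endocrine markers summed to 212 to 249 and 135 to 217, endothelial markers to 7.80 to 20.1 and 7.35 to 13.2, and erythroid markers to 0.917 to 1.50 and 0.439 to 1.43. Their part in the differences was not tested. With library totals 23 genes were called, 17 of them among the 33. Without the CFTR+/- fetuses 3 genes were called, with the 80-day groups fitted alone 361, and without 1 fetus at a time between 4 (without CFTR-/- replicate 2) and 57 (without CFTR-/- replicate 1), with 5 without CFTR-/- replicate 3 and 15 without WT replicate 2.

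At 120 days, 1 gene was higher and 6 were lower in CFTR-/- acinar cells (0.00689 and 0.0413% of genes tested). H3F3B, which encodes the replacement histone H3.3, had 1839, 3117 and 2078 CPM in WT fetuses and 1038, 1188, 974, 584 and 623 CPM in CFTR-/- replicates 1, 2, 4, 5 and 6 (log2 -1.41 ± 0.24 (SE), adjusted p = 0.0334). FASN, the fatty acid synthase, had 28.5, 51.5 and 42.7 CPM and 24.5, 16.4, 17.5, 17.7 and 17.0 CPM (log2 -1.13 ± 0.21 (SE), adjusted p = 0.0487). Both were lower in all 5 CFTR-/- fetuses than in any WT fetus. Neither passed with library totals (log2 -0.96 and -0.80, edgeR adjusted p = 0.559 and 0.579), and H3F3B passed in 12 and FASN in 7 of 21 other settings. The remaining calls, named after their values were seen, were LOC101106199, LOC101119869, LOC105605981 and DEFB112 among the lower ones and LOC101114941, the only higher one. No listed gene of any role passed, with list medians from -0.81 for the 15 immediate early and heat shock genes to 0.64 for the 16 injury and duct-like genes and 0.02 for all genes. With the replicate number as a block, or with the male CFTR-/- fetuses alone, no gene was called. Numbers 5 and 6 occur only among CFTR-/- fetuses of this age, so the block leaves these females out of the comparison as well. Without 1 fetus at a time the count ran from 0 (without CFTR-/- replicate 4 or 6) to 28 (without CFTR-/- replicate 1), with 26 without WT replicate 3. DESeq2 called 53, and 975 genes had an unadjusted p under 0.05.

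The unnamed genes LOC101114941 and LOC101119869 were called at both ages. LOC101114941 had 2.25, 4.16 and 4.26 CPM in CFTR-/- fetuses at 80 days and 3.23, 3.38, 2.47, 3.86 and 2.06 CPM at 120 days, against at most 0.304 CPM in the WT fetuses of both ages. LOC101119869 had 15.7, 0.290, 12.5 and 10.8 CPM in WT fetuses at 80 days, where replicate 2, a CFTR+/- fetus, was at the level of the CFTR-/- fetuses, and 10.2, 8.34 and 5.96 CPM at 120 days, against at most 0.899 CPM in CFTR-/- fetuses. At term LOC101119869 was at most 0.575 CPM in all 7 lambs of both genotypes. LOC101114941 had 0.444, 1.62, 0.226 and 0.735 CPM in WT lambs and 0.293, 2.09 and 1.94 CPM in CFTR-/- lambs, so that the genotypes overlapped at term.

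At term, 135 genes were higher and 41 lower in CFTR-/- acinar cells (0.930 and 0.282% of genes tested), the highest count of the 3 ages with all groups in the fit. With only the groups compared it was the lowest, with 361 genes at 80 days, 6 at 120 days and 0 at term. The largest rise was that of CYM, the milk-clotting protease chymosin, with 12.5, 48.1, 5.08 and 4.38 CPM in WT lambs and 142, 1542 and 1072 CPM in CFTR-/- lambs (log2 5.70 ± 1.04 (SE), adjusted p = 0.013). Every CFTR-/- lamb was above every WT lamb, and CYM was listed at 0 in the acinar cells of all 4 WT fetuses at 80 days. Without TMM its mean in the CFTR-/- lambs was 665 per 1000000 in acinar cells and 225 in other kept cells, with the acinar cells above the other cells in 2 of the 3 lambs. VNN2, a member of the vanin family of pantetheinases, had 1.78, 5.78, 7.09 and 26.9 CPM and 343, 63.8 and 114 CPM (log2 4.06 ± 0.87 (SE), adjusted p = 0.0256), again without overlap. KRT7, a keratin of simple and ductal epithelia, had 20.2, 28.6, 10.1 and 23.3 CPM and 201, 61.7 and 131 CPM (log2 2.67 ± 0.40 (SE), adjusted p = 0.00218). KCNE1, a potassium channel subunit, was at most 0.452 CPM in WT lambs and had 5.85, 23.2 and 13.8 CPM in CFTR-/- lambs (log2 5.52 ± 0.87 (SE), adjusted p = 0.00385). DIRAS3, a Ras-like GTPase, had 22.1, 212 and 10.5 CPM in CFTR-/- lambs against at most 6.98 CPM in WT lambs (log2 4.25 ± 0.84 (SE), adjusted p = 0.0153), a difference carried by replicate 2, the animal at 212 CPM, without which it was 1.93 (edgeR adjusted p = 0.193).

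**Figure D3:**
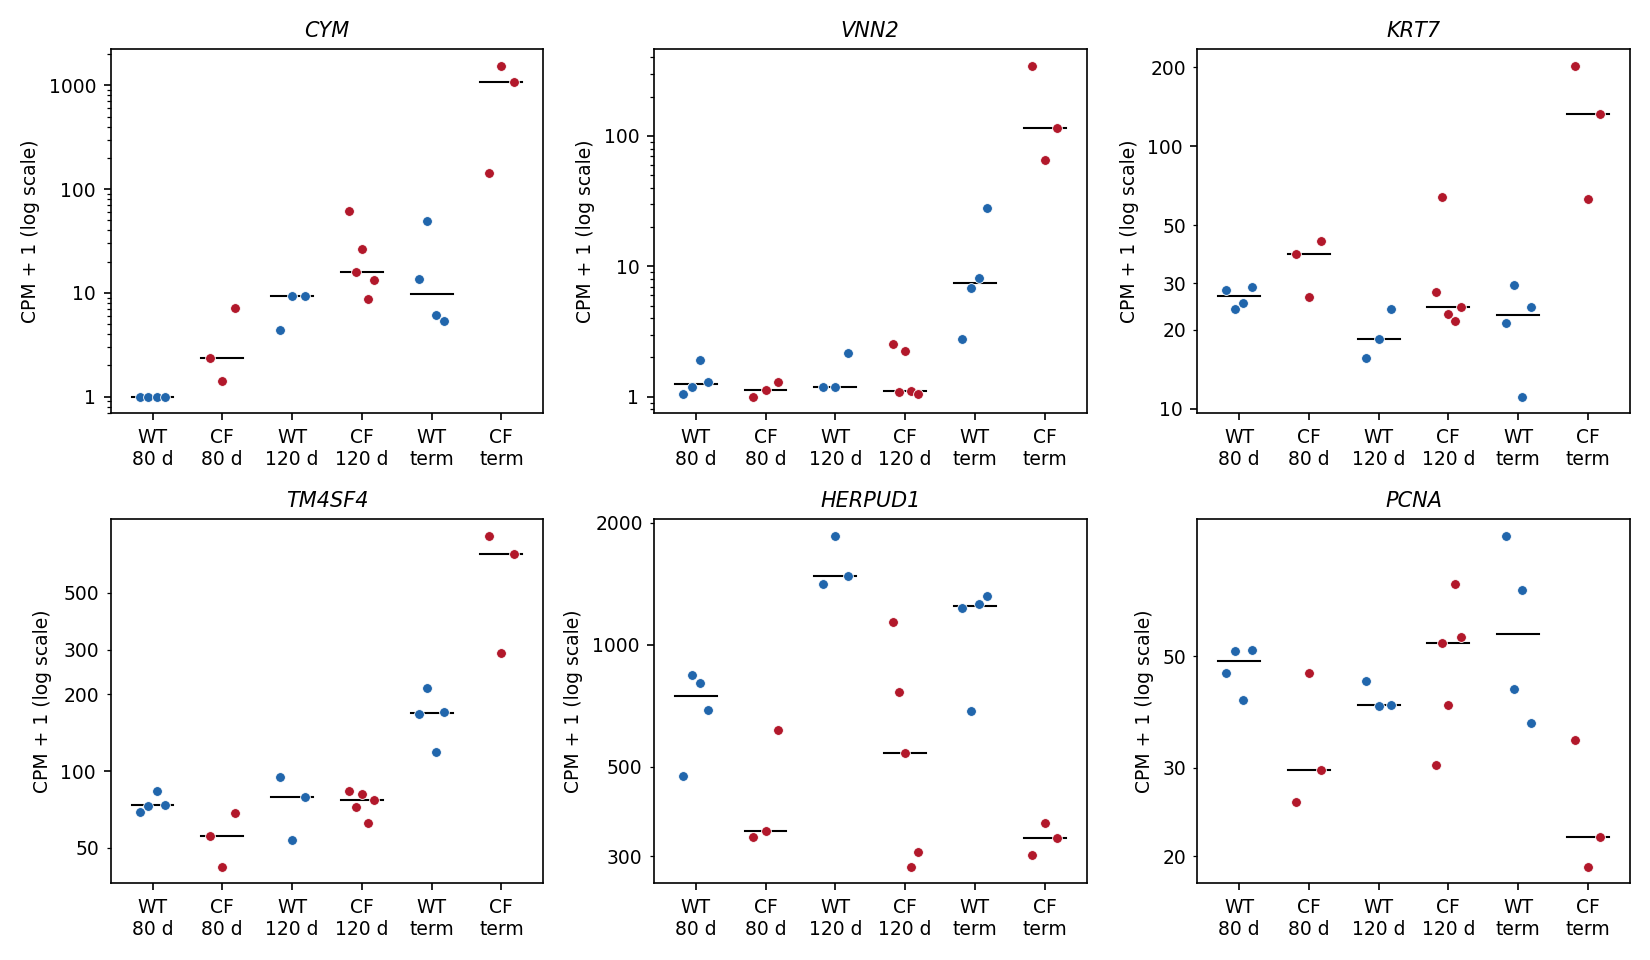
Levels in acinar cells (CPM plus 1, log axis) of 4 genes that were higher and 2 that were lower in CFTR-/- lambs at term, 1 point per animal in WT (blue) and CFTR-/- (red) groups, with lines at group medians. At term the CFTR-/- lambs lie apart from the WT lambs in all 6 genes, with CYM at 142 to 1542 CPM against 4.38 to 48.1 CPM. CYM, VNN2, KRT7, HERPUD1 and PCNA were named by rules that required a lack of overlap.

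Some of these genes belong to duct and mural cells. TM4SF4, a membrane protein and the only one of 6 duct markers to pass, had 166, 210.3, 118 and 169.7 CPM in WT and 838, 291 and 713 CPM in CFTR-/- lambs (log2 1.89 ± 0.28 (SE), adjusted p = 0.00218). The 6 duct markers summed to 132 to 315 per 1000000 of acinar UMIs in WT lambs and to 420 to 804 in CFTR-/- lambs, and the 5 mural markers, of which CALD1 passed (log2 1.28 ± 0.31), to 13.2 to 76.4 and 63.9 to 203. Stromal markers summed to 0.424 to 11.2 and 1.30 to 10.1, immune markers to 0.257 to 12.3 and 1.14 to 11.5, and endothelial markers to 3.96 to 12.2 and 2.21 to 9.03 per 1000000. In the other kept cells KRT7 stood at 526 per 1000000 in CFTR-/- lambs and 239 in WT lambs, above its acinar level in every lamb, and TM4SF4 at 593 and 525. VNN2, in contrast, was higher in acinar than in other kept cells of all 3 CFTR-/- lambs. The part of duct and mural RNA in these differences was not tested. KRT7 and ANXA2, a calcium-dependent membrane-binding protein (log2 1.28 ± 0.30), were the 2 of 16 injury and duct-like genes that rose. ANXA2 passed in 12 of 20 other settings.

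The 41 genes that fell included HERPUD1. This gene, which helps to degrade misfolded ER proteins, had 1232, 684, 1262 and 1318 CPM in WT and 302, 362 and 332 CPM in CFTR-/- lambs (log2 -1.76 ± 0.40 (SE), adjusted p = 0.0372). It was the only one of 33 ER folding and export genes to pass. The list had a median log2 of -0.50 with 27 of the 33 below 0, against -0.01 for all genes. SLC30A2, a zinc transporter of zymogen granules, fell (log2 -1.40 ± 0.25), and KCNE1 and SLC12A2, the cotransporter that brings chloride into secretory cells (log2 1.50 ± 0.37), rose, which gave 2 higher and 1 lower of 11 ion, water and zinc transport genes. PCNA, the sliding clamp of DNA replication, had 85.9, 42.0, 66.7 and 35.8 CPM and 33.2, 18.1 and 20.8 CPM (log2 -1.26 ± 0.31 (SE), adjusted p = 0.0493), 1 of 16 cell division genes (median -0.30). NUGGC (log2 -2.04 ± 0.42), RCN2, a calcium-binding ER protein (-1.55 ± 0.35), and RRP9, a ribosomal RNA processing factor (-1.54 ± 0.35), were, with HERPUD1, the 4 largest falls. No protease (median -0.19), lipase (-0.29), granule gene (0.07), acinar transcription factor (0.14), secretion gene (0.13) or amino acid metabolism gene (-0.24) passed. Of the genes named here, HERPUD1 passed in 11, PCNA in 9 and RCN2 and RRP9 in 12 each of 20 other settings. Between 45 (without WT replicate 3) and 814 genes (without WT replicate 4) were called when 1 lamb was left out, with 76 without WT replicate 1, 702 without WT replicate 2, and 107, 71 and 66 without CFTR-/- replicates 1, 2 and 3. The male CFTR-/- animals alone leave 1 CFTR-/- lamb, so no conclusion is drawn from the count of that setting. The count was 221 without all cells under 1% mitochondrial UMIs, and 0 by edgeR when only the term groups were fitted. The cause of this drop was not tested. DESeq2 called 605 genes, and 2382 had an unadjusted p under 0.05.

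The comparisons of ages within a genotype share animals with those between genotypes and with each other, so their values are set side by side only. Between 80 and 120 days, 92 genes rose and 30 fell in WT acinar cells (0.634 and 0.207% of genes tested), and 3 of 9 proteases and 1 of 5 lipase genes were among those that rose. CTRC went from 365, 152, 268 and 367 CPM to 1886, 2995 and 1526 CPM (log2 2.89 ± 0.60 (SE), adjusted p = 0.0285). PRSS2, a trypsinogen, went from 3093, 4011, 5243 and 4463 CPM to 23374, 21697 and 15785 CPM (log2 2.27 ± 0.42 (SE), adjusted p = 0.0132), and every fetus at 120 days was above every fetus at 80 days for both. KLK1, tissue kallikrein, rose by log2 3.43 ± 0.54 and PLA2G1B, the pancreatic phospholipase A2, by 2.89 ± 0.47 (both adjusted p = 0.00596). HSPA6, a heat shock protein (3.72 ± 0.77), and CRISP3, a secreted granule protein (1.70 to 6.49 CPM at 80 days and 19.5 to 35.6 CPM at 120 days), were the others of the 4 largest rises. The disulfide isomerase PDIA2, which is particular to the pancreas, had 339.8, 603, 821 and 311 CPM and 2476, 2354 and 1553 CPM (log2 2.04 ± 0.40 (SE), adjusted p = 0.0224) and was the only one of 33 ER genes called, while 32 of the 33 were above 0 with a median of 0.67, which was -0.46 with library totals. GCAT of glycine metabolism (log2 1.46 ± 0.33) was 1 of 16 amino acid genes. Stromal markers summed to 18.9 to 38.9 per 1000000 of acinar UMIs at 80 days and 2.72 to 9.41 at 120 days, and endocrine markers to 212 to 249 and 148 to 152, without overlap, and their part in these differences was not tested. CEL, CLPS and SYCN were higher by log2 1.55, 3.04 and 1.80 without passing. Of 20 other settings GCAT passed in 10, HSPA6 in 12 and CTRC in 13. ABHD2, CPQ, PAFAH1B2 and PTPRG had the largest falls, of log2 -1.21 to -0.61, and passed in 13, 11, 10 and 8 of 20 other settings. With library totals 61 genes were higher and 9234 lower (75.4% of calls higher with TMM, 0.656% with totals), with CTRC at log2 1.72 and PRSS2 at 1.17. Without the CFTR+/- fetuses 1 gene was called, with only the groups compared 1014, and without 1 fetus at a time 22 (without WT replicate 2 or 4 at 80 days) to 68 (without replicate 3 at 120 days).

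In CFTR-/- acinar cells 270 genes were higher and 282 lower at 120 than at 80 days (1.86 and 1.94% of genes tested). CLPS went from 689.6, 342 and 761 CPM to 5624, 1378, 9214, 70210.4 and 49270.5 CPM in replicates 1, 2, 4, 5 and 6 (log2 5.51 ± 1.28 (SE), adjusted p = 0.0211). PRSS2 rose by log2 2.55 ± 0.45, PRSS1, another trypsinogen, by 4.95 ± 1.10, the lipase PNLIP, which was at most 4.86 CPM, by 3.96 ± 1.10 and the granule proteins REG1A and ZG16 by 5.40 ± 1.29 and 3.00 ± 0.73. PNLIP passed in 9 of 21 other settings. In all, 3 of 9 proteases, 3 of 5 lipase genes and 2 of 11 granule genes rose and none fell. The fetuses at 80 days were all male clones, and with the 2 naturally bred females at 120 days left out none of CLPS, PRSS1, PRSS2, PNLIP, REG1A and ZG16 passed (log2 2.21 for PRSS2 to 3.52 for PNLIP, edgeR adjusted p = 0.0561 to 0.202). As a share of acinar UMIs the digestive enzyme and granule genes overlapped between the ages (6.97 to 9.56% and 3.96 to 14.5%), and the proteases had a mean of 5.06% at 80 days and 4.84% at 120 days. CTRC had 1007, 167, 1638, 1619.9 and 2327 CPM at 120 days, a log2 difference of -0.03 ± 0.56 from 80 days that did not pass (with library totals -1.15, edgeR adjusted p = 0.0451). The age effect on CTRC differed between the genotypes by -2.93 on the log2 scale, which did not pass either (edgeR adjusted p = 0.526). The ER folding list had 9 of 33 genes higher and none lower (median 0.71, and -0.25 with library totals), led by PDIA2 (log2 3.03 ± 0.44), the peroxiredoxin PRDX4 (1.69 ± 0.35) and the prolyl isomerase FKBP11 (1.46 ± 0.30), and DERL3, a component of ER-associated degradation, rose by 4.08 ± 0.83. AHSG (5.64 ± 1.47), a plasma glycoprotein, and the chemokine CCL26 (4.59 ± 1.18) rose as well. AHSG passed in 14 and CCL26 in 13 of 21 other settings, with lowest values of 2.04 and 3.57. NR5A2, a nuclear receptor that maintains acinar identity, fell from 57.5, 84.5 and 76.4 CPM to 30.2, 38.7, 42.6, 35.3 and 42.6 CPM (log2 -0.95 ± 0.15 (SE), adjusted p = 0.00356). FOS (log2 -1.98 ± 0.43) and JUNB (-2.04 ± 0.45), immediate early genes, fell, and so did KLF2 (-5.38 ± 0.94), DAB2 (-5.30 ± 1.18), CFD (-3.43 ± 0.95) and SPP1, osteopontin (-6.22 ± 1.68). CFD passed in 8, SPP1 in 10 and DAB2 in 17 of 21 other settings, and without replicate 1 at 80 days they stood at -1.32, -2.88 and -2.75 and did not pass. SPP1 had 2249.9, 46.8 and 110.1 CPM at 80 days, with the highest value in replicate 1, the animal with 71 acinar cells. KLF2, DAB2 and CFD were lower in acinar than in other kept cells of every one of these animals, and between 80 and 120 days the immune markers went from 9.56 to 64.5 down to 0.512 to 19.4 per 1000000 of acinar UMIs and the stromal markers from 21.5 to 74.2 down to 1.53 to 10.1. Their part in these falls was not tested. The potassium channel gene KCNQ1 rose by log2 0.91 ± 0.24 with TMM and stood at -0.10 with library totals, under which 91 genes were higher and 7509 lower (48.9% of calls higher with TMM, 1.20% with totals). KCNQ1 passed in 6 of 21 other settings. With a replicate block, which leaves out the females at 120 days as well, 4 genes were called, and with male animals alone 56. Without 1 fetus at a time the count ran from 104 (without replicate 2 at 80 days) to 912 (without replicate 2 at 120 days). It was 144 without replicate 3 at 80 days and 214 and 245 without the females at 120 days.

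Between 120 days and term more genes were called than between 80 and 120 days with TMM and all groups in the fit, but not with library totals (970 against 9295 in WT and 1475 against 7600 in CFTR-/- animals) nor, in WT animals, with only the groups compared (399 against 1014). In WT animals 1328 genes rose and 1019 fell (9.15 and 7.02% of genes tested). REG1A, a secreted lectin of acinar cells, went from 123, 464 and 145 CPM to 2891, 37792, 28256 and 79578 CPM (log2 7.25 ± 1.41 (SE), adjusted p = 0.00233). CTRC went from 1886, 2995 and 1526 CPM to 6153, 29022, 11116 and 20663 CPM (log2 2.97 ± 0.66 (SE), adjusted p = 0.00522), and PRSS1 and PRSS2 rose by log2 3.78 ± 1.04 and 1.82 ± 0.44. Every lamb was above every fetus in these genes, and 3 of 9 proteases rose. Among the lipases PNLIPRP2, a lipase active on milk fat and galactolipids, fell from 15984, 17859.6 and 11475 CPM to 7336, 8297, 6728 and 4437 CPM (log2 -1.17 ± 0.33 (SE), adjusted p = 0.0193), and CEL and CLPS had log2 differences of -0.11 and 1.24 that did not pass. The lipase and colipase genes together gave 3.96, 4.91 and 1.89% of WT acinar UMIs at 120 days and 3.39, 6.97, 6.32 and 5.08% at term, with overlap. ZG16, a lectin of the granule membrane, rose by log2 3.32 ± 0.71, and AMBP, a protease inhibitor precursor, fell (log2 -1.62 ± 0.45). Endocrine markers summed to 148 to 152 per 1000000 of WT acinar UMIs at 120 days and 22.7 to 105 at term, and endothelial markers to 14.8 to 21.2 and 3.96 to 12.2, both without overlap. Erythroid markers summed to at least 1.03 at 120 days and at most 0.995 at term, and the duct, stromal, mural, Schwann cell and immune sums overlapped. Their part in these differences was not tested. WT replicate 1 had the lowest level of the 4 lambs in CTRC, PRSS2, CLPS, SYCN and REG1A. With totals counted without LOC101117443, 480 genes were higher and 1236 lower, and with library totals 616 and 354. Without 1 animal at a time 1219 genes (without WT replicate 2 at 120 days) to 3161 were called (the highest without replicate 2 at term), with 1238 and 1417 without the other fetuses and 1395 without replicate 3 at term.

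**Figure D4:**
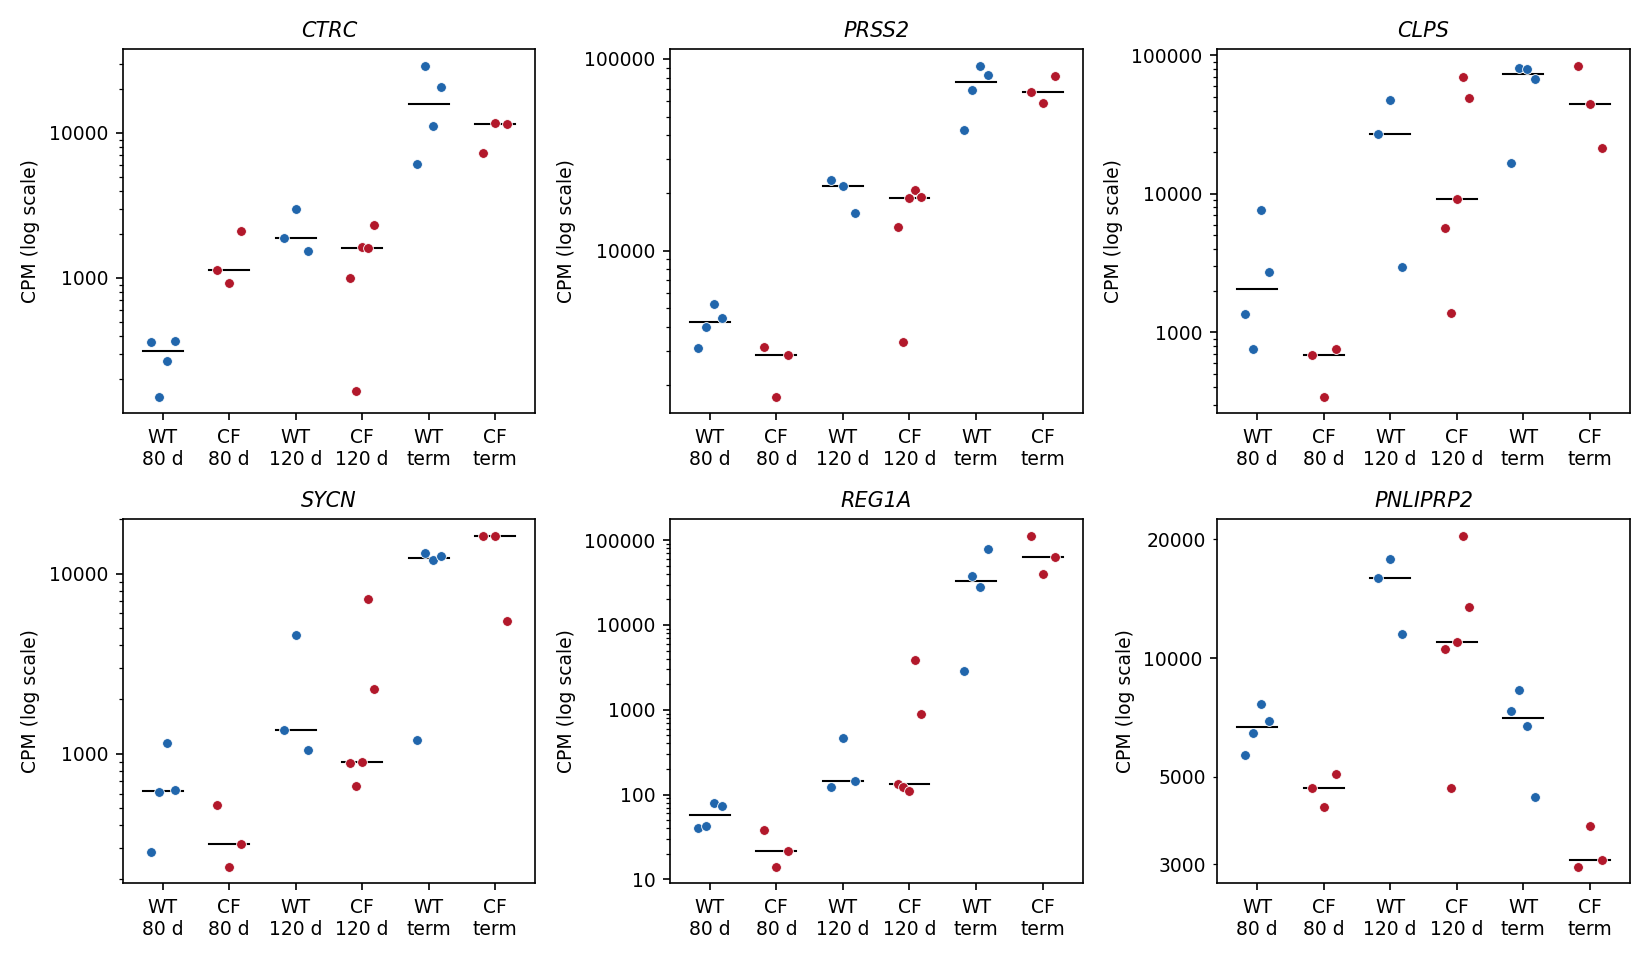
Levels (CPM, log axis) of 6 secreted protein genes in acinar cells, 1 point per animal in WT (blue) and CFTR-/- (red) groups, with lines at group medians. CTRC, PRSS2 and REG1A are highest at term in both genotypes, PNLIPRP2 is highest at 120 days, and CLPS and SYCN spread widely among the animals of a group at 120 days.

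In CFTR-/- animals 1580 genes rose and 1152 fell between 120 days and term (10.9 and 7.93% of genes tested). CTRC (log2 2.90 ± 0.56 (SE), adjusted p = 0.00127), PRSS2 (2.20 ± 0.39), CTRB1 (3.42 ± 0.90) and CELA3B, an elastase (1.67 ± 0.46), were the 4 of 9 proteases that rose. REG1A went from 133, 122, 109, 3830.2 and 888 CPM to 113102, 39796 and 63954 CPM (log2 6.15 ± 1.08 (SE), adjusted p = 0.000633), ZG16 rose by 3.50 ± 0.60 and SYCN by 2.40 ± 0.75 (adjusted p = 0.0288, with overlap). PNLIPRP2 fell to 2957, 3742 and 3073 CPM (log2 -1.88 ± 0.34 (SE), adjusted p = 0.000757), and AMBP fell too (log2 -2.38 ± 0.48). Among genes with a symbol in the files the largest rises were those of VNN2 (log2 8.10 ± 0.97), C9H8orf22 (6.38 ± 1.13), FAM3B, a secreted cytokine-like protein (5.85 ± 0.70), and LYVE1, a hyaluronan receptor (5.77 ± 0.90), and KCNE1 rose by 6.24 ± 0.84. The complement genes C3 and CFB rose by log2 4.17 ± 0.89 and 3.45 ± 0.75 and B2M, the light chain of MHC class I, by 1.36 ± 0.36, making 3 of 15 inflammation and antigen presentation genes. Of the cell division list 3 of 16 genes fell and none rose (median -1.05), among them TYMS (-1.58 ± 0.40) and TPX2 (-1.22 ± 0.41, which passed in 10 of 21 other settings). The duct markers summed to 132 to 405 per 1000000 of acinar UMIs at 120 days and 420 to 804 at term, endocrine markers to at most 396 at 120 days and at most 106 at term, and Schwann cell markers to 1.97 to 7.24 and 0.331 to 1.47, all without overlap. Of the 5 mural markers 4 rose (median 3.24), among them ACTA2 (4.41 ± 1.17), and GCG fell (log2 -3.77 ± 1.08), whose mean in the other kept cells was 16985 per 1000000 at 120 days and 3646 at term. The mural markers together summed to 13.6 to 72.7 per 1000000 of acinar UMIs at 120 days and 63.9 to 203 at term, with overlap. With library totals 565 genes were higher and 910 lower, that is 38.3% of calls higher against 57.8% with TMM, and with totals counted without LOC101117443 576 were higher and 3009 lower. The part of RNA from these other cells in the differences was not tested. Male animals alone leave 1 lamb at term, so no conclusion is drawn from the count of that setting. Without 1 animal at a time 1682 (without replicate 1 at term) to 2530 genes were called.

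Some genes of the secretory machinery also passed between 120 days and term. CCKAR, the receptor for cholecystokinin, fell in WT animals from 69.4, 68.7 and 48.3 CPM to 8.69, 11.1, 7.18 and 1.81 CPM (log2 -3.11 ± 0.60 (SE), adjusted p = 0.00219). In CFTR-/- animals it fell from 50.3, 92.0, 68.0, 69.5 and 67.4 CPM to 2.80, 32.3 and 4.58 CPM (log2 -2.41 ± 0.61 (SE), adjusted p = 0.0096). Only replicate 2 of the CFTR-/- lambs stayed above the WT lambs. The calcium release channel ITPR2 fell in WT (log2 -1.28 ± 0.22) and CFTR-/- animals (-1.22 ± 0.23), and so did the vesicle fusion gene VAMP2 (-0.78 ± 0.20 and -0.69 ± 0.20), while VAMP8, the VAMP of zymogen granules, rose by 0.77 ± 0.19 and 1.20 ± 0.18. The chloride channel ANO1, which opens on calcium, rose by 1.39 ± 0.29 and 1.64 ± 0.26. Of 33 ER folding and export genes 10 rose in WT animals (median 0.54) and 3 in CFTR-/- animals (median 0.04, and -0.22 with library totals), with none lower. Over all genes tested 9.15% rose in WT and 10.9% in CFTR-/- animals, so that the share of this list was above that of all genes in WT animals and near it in CFTR-/- animals. Whether the list as a whole differed between the genotypes was not tested. DNAJB11 (log2 1.36 ± 0.33) and MANF (1.30 ± 0.33) were among those of the WT animals, and the signal peptidase subunit SEC11C (1.72 ± 0.43 and 1.72 ± 0.38) passed in both. XBP1, the transcription factor of the secretory programme, rose by 0.67 ± 0.19 and 0.75 ± 0.18. In WT animals XBP1 passed in 12 of 19 other settings. None of these genes was called by the test of the interaction between age and genotype.

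PSAT1, an enzyme of serine synthesis, went in WT animals from a range of 17.9 to 29.0 CPM to 163, 79.9, 228 and 166 CPM (log2 2.85 ± 0.30 (SE), adjusted p = 1.85e-05). In CFTR-/- animals it went from 26.6, 22.6, 15.2, 29.5 and 26.2 CPM to 181, 241 and 217 CPM (log2 3.15 ± 0.26 (SE), adjusted p = 2.7e-07). No lamb overlapped with a fetus. ASNS, asparagine synthetase, rose by log2 2.74 ± 0.49 and 2.34 ± 0.42. GNMT, a glycine methyltransferase, rose by 1.72 ± 0.33 in WT animals. Of the 16 genes of amino acid metabolism 5 rose and 1 fell in WT and 3 rose and 1 fell in CFTR-/- animals, against 9.15 and 7.02% of all genes in WT and 10.9 and 7.93% in CFTR-/- animals. GSS, glutathione synthetase (3.59 ± 0.43), PFKFB1 of glycolysis (3.43 ± 0.80) and the mitochondrial protein MPV17L2 (3.31 ± 0.41) were, with ZG16, the largest rises in WT animals among genes with a symbol in the files, below REG1A and PRSS1. Of 11 fetal growth genes 3 fell in WT and 2 in CFTR-/- animals and none rose: MDK, midkine (log2 -2.71 ± 0.61 and -2.56 ± 0.61), SFRP1, an inhibitor of Wnt signalling (-1.33 ± 0.22 and -1.25 ± 0.22), and, in WT animals, PTN, pleiotrophin (-2.33 ± 0.66). PTN stood at -0.68 with doublets removed (edgeR adjusted p = 0.577) and at -1.32 without replicate 3 at 120 days (edgeR adjusted p = 0.208). CDKN1C, a cell cycle inhibitor (-3.75 ± 0.68), COL27A1 (-2.91 ± 0.47), CCL26 (413 to 706 CPM at 120 days and 8.39 to 133 CPM at term) and the interferon-induced IFITM1 (-2.13 ± 0.43) fell in WT animals. In CFTR-/- animals DUSP9 (-3.54 ± 0.49), C24H16orf89 (-3.29 ± 0.44), HPGD, which breaks down prostaglandins (-3.28 ± 0.42), and the metallothionein MT2A (-4.57 ± 1.33) fell.

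**Figure D5:**
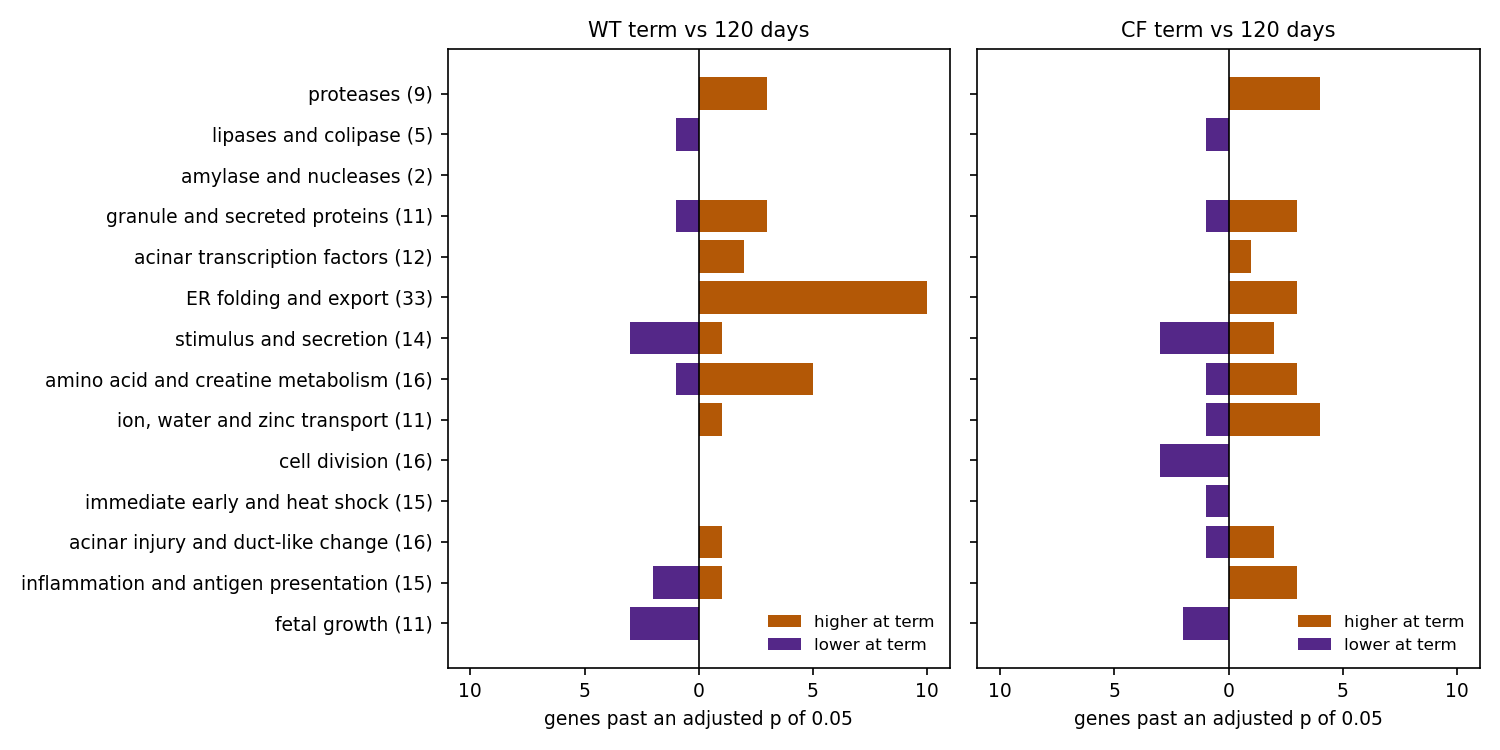
Number of genes past an adjusted p of 0.05 that were higher (to the right of 0) or lower (to the left) at term than at 120 days in acinar cells of WT (left panel) and CFTR-/- animals (right panel), by list, with the number of genes tested in parentheses. The ER folding and export list has 10 of 33 genes higher in WT and 3 in CFTR-/- animals, where 9.15 and 10.9% of all genes tested were higher.

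Whether an age difference itself differed between genotypes was tested with an interaction term. Between 80 and 120 days no gene passed (0 of 14520 with edgeR, with 850 at an unadjusted p under 0.05 and 18 calls by DESeq2). Between 120 days and term 1 gene passed: ABHD12, a lipase that breaks down lysophosphatidylserine, had 12.0, 10.2 and 12.6 CPM and 29.3, 27.4, 23.4 and 41.5 CPM in WT animals, and 10.6, 7.81, 10.5, 11.1 and 10.3 CPM and 142, 73.4 and 92.2 CPM in CFTR-/- animals. The rise with age was larger in CFTR-/- animals by log2 1.96 ± 0.29 (SE, edgeR adjusted p = 0.0150), and all CFTR-/- lambs were above all WT lambs. ABHD12 was higher in acinar than in other kept cells in the 3 CFTR-/- lambs and lower in every other animal. DESeq2 called 42 genes here, 1247 had an unadjusted p under 0.05, and no gene was called with library totals (0 of 14520), without CFTR-/- replicate 1 at term or without WT replicate 1 or 3 at 120 days.

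The share of acinar cells with a molecule of a given gene was compared on cells thinned to 5000 UMIs. A UMI of the proliferation genes MKI67 or TOP2A was found in 6.61% of WT acinar cells at 80 days, 4.22% at 120 days and 3.75% at term, and in 6.20, 5.44 and 2.98% of CFTR-/- acinar cells (16.3, 9.84 and 8.83% and 13.9, 13.2 and 8.15% unthinned, means over animals). The other kept cells had 6.07 to 13.1%. The immune gene SRGN was found in up to 2.36% of acinar cells. The part of RNA from other cells in the shares of MKI67 or TOP2A was not tested. KRT19, a duct keratin, was found in 10.2% of WT acinar cells and 23.6% of CFTR-/- acinar cells at term (38.5 and 60.7% unthinned), against 40.0 and 34.8% of the other kept cells, and its level differed by a log2 value of 1.11 ± 0.50 (SE), adjusted p = 0.27 with edgeR. The groups overlapped for KRT19, and it did not pass at any age. None of these shares was tested.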

How the data were processed

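Single cells of sheep pancreas were sequenced with 10x Genomics 3' chemistry, and the authors made UMI counts per gene and barcode with Cell Ranger 3.1.0 on Oar_v4.0. The files deposited are those counts, not normalized. Cells were counted per animal, and an animal's acinar UMIs were summed per gene where it had at least 20 acinar cells. Of 24478 genes, 87 taken as ribosomal protein genes and genes of low counts (filterByExpr) were left out. Ribosomal protein genes were taken by symbol, as RPS or RPL followed by a digit, here and in the shares of UMIs. The function of each was not checked, and any ribosomal protein gene with another symbol stayed in. The sums were tested with edgeR 4.0.16 (R 4.3.3, TMM, quasi-likelihood test, 22 animals in 1 fit of the 6 groups, Benjamini-Hochberg adjustment). Acinar shares were compared with exact two-sided permutation tests in Python 3.11.15. The acinar rule, the lists (254 genes, 16 of them not analysed here) and the rule for naming genes were chosen with earlier results of these data known. Named genes are the markers CTRC, CEL, CLPS and SYCN, AQP8 and CFTR, up to 3 called genes per list and 4 rises and 4 falls per comparison by log2 fold change. The genes per list and the rises and falls were taken only where the groups did not overlap. Symbols of 17 LOC genes come from the study's marker tables. Doublets had no mark in the files and stayed in, and as an alternative the 3466 kept cells (4.36%) of highest Scrublet score within their libraries (scanpy 1.11.5, 0.8% per 1000 barcodes) were removed. Alternatives included DESeq2 1.42.0, library totals, a replicate block, and 2 chosen after the data were seen, totals without LOC101117443 and the removal of cells under 1% mitochondrial UMIs. Library totals ran from 7841217 to 171256169 UMIs. Tested on simulated counts with 100 changed genes of each size, the fit found 36 to 56% of changes of log2 1 and 90 to 100% of log2 2, with 2.58 to 6.13% of calls false, on 13505 to 13970 genes per comparison. These counts were drawn with the fit's own spread around a common mean per gene, with as many changes up as down. They hold no shift in the make-up of the RNA, so these rates may not carry over to the real counts. Changes were placed only in genes above a minimum mean level, so the shares found do not cover genes of low level. Each animal is 1 replicate, and the labels give no sequencing batch, so none could be tested. In the study's text more than 1 version of the 10x 3' kit and alternative digestion enzymes were used, over several annual breeding cycles. Which library had which is not given there, so their part in the differences between groups was not tested.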

Additional observations from a re-analysis of the deposited data

Results flagged for a closer look

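In groups of 4 to 10 animals, 66 sets of values were examined for a single animal far from the others, and 7 were found. A rate of about 1 in 20 by chance holds for independent sets. These sets share animals, so it may not hold here. WT replicate 1 at 80 days had an acinar share of 37.9%, next to 22.7%. It is the only WT fetus of that age outside the set of triplets. CTRB1 was at 95.4 CPM in WT replicate 3 at 80 days, next to 57.3. Among CFTR-/- fetuses at 120 days, replicate 5, a female, had SYCN at 7194 CPM, next to 2283, and REG1A at 3830.2 CPM, next to 888, where the next animal was the other female both times. KRT7 was at 62.7 CPM in 1 CFTR-/- fetus at 120 days, replicate 2, next to 26.7. At term, WT replicate 1 had SYCN at 1183 CPM, next to 11939, and WT replicate 2 had HERPUD1 at 684 CPM, next to 1232. ABHD12 was the gene whose difference between 120 days and term itself differed between genotypes, by log2 1.96 (edgeR adjusted p = 0.0150). Its mean without TMM was 20.0 UMIs per 1000000 in acinar cells of WT lambs and 64.0 in those of CFTR-/- lambs, and 30.7 and 49.3 in their other kept cells.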

How the results depend on the processing

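The differences in acinar share between groups kept their direction under all alternatives, except CFTR-/- term against 120 days (-1.72 percentage points), which ran from -11.5 to 3.49 when 1 animal was left out and turned positive without replicate 5 or 6 at 120 days or replicate 2 or 3 at term. Their size changed with the AQP8 threshold: at 1000 AQP8 per 1000000 UMIs CFTR-/- minus WT was -3.27 points at 80 days (-12.2 at 300), -0.585 at 120 days (-13.2) and -19.6 at term (-29.8), 120 minus 80 days was 5.41 in WT (17.5) and 8.10 in CFTR-/- animals (16.5), and CFTR-/- term minus 120 days was -5.63. With CFTR-/- males only, CFTR-/- minus WT at 120 days was -22.6 and CFTR-/- 120 minus 80 days 7.19. Without 1 animal CFTR-/- minus WT ran from -18.8 to -7.34 points at 80 days (both ends from CFTR-/- animals, replicates 2 and 1, with -8.16 without WT replicate 1), from -22.3 to -7.54 at 120 days (without WT or CFTR-/- replicate 3, with -8.60 without WT replicate 1) and from -39.5 to -24.6 at term. WT 120 minus 80 days ran from 12.9 to 26.5 (highest without replicate 3 at 120 days), WT term minus 120 days from 5.83 (without that fetus) to 19.5, and CFTR-/- 120 minus 80 days from 11.6 to 23.1. With CFTR-/- males only, 1 CFTR-/- lamb is left at term, so no conclusion is drawn from the counts of called genes of that setting at term. Counts of called genes moved more than the differences in share, and the cause was not tested. For CFTR-/- against WT at 80 days (33 genes called) they were 3 without the fetuses labelled HZ, 361 with only the groups compared and 186 by DESeq2, and 4 to 57 without 1 animal (lowest without CFTR-/- replicate 2, highest without CFTR-/- replicate 1). At 120 days (7 genes) they were 4 with library totals without LOC101117443, 0 with the replicate block, 3 with doublets removed, 0 with CFTR-/- males only and 53 by DESeq2, and 0 to 28 without 1 animal (0 without CFTR-/- replicate 4 or 6, 28 without CFTR-/- replicate 1). At term (176 genes) they were 68 with library totals, 106 with totals without LOC101117443, 40 with CFTR-/- males only, 0 with only the groups compared and 605 by DESeq2, and 45 to 814 without 1 animal (lowest without WT replicate 3, highest without WT replicate 4). For WT 120 against 80 days (122 genes) they were 9295 with library totals, 2838 with totals without LOC101117443, 68 with no filter on low counts, 1 without the fetuses labelled HZ, 1014 with only the groups compared and 531 by DESeq2, and 22 to 68 without 1 animal (lowest without WT replicate 2 or 4 at 80 days). For WT term against 120 days (2347 genes) they were 970 with library totals and 399 with only the groups compared, and 1219 to 3161 without 1 animal (lowest without WT replicate 2 at 120 days). For CFTR-/- 120 against 80 days (552 genes) they were 7600 with library totals, 1204 with totals without LOC101117443, 4 with the replicate block, 56 with CFTR-/- males only, 320 with only the groups compared and 938 by DESeq2, and 104 to 912 without 1 animal (lowest without replicate 2 at 80 days, highest without replicate 2 at 120 days). For CFTR-/- term against 120 days (2732 genes) they were 1475 with library totals and 748 with CFTR-/- males only, and 1682 to 2530 without 1 animal (lowest without replicate 1 at term). The difference between genotypes in the change from 80 to 120 days (0 genes) gave 1 with library totals, 1 with totals without LOC101117443, 1 with no filter on low counts and 18 by DESeq2, and 0 to 2 without 1 animal. That in the change from 120 days to term (1 gene) gave 0 with library totals, 0 with totals without LOC101117443, 2 with no filter, 2 with the replicate block, 3 with at least 10 AQP8 UMIs, 3 with doublets removed, 2 without cells under 1% mitochondrial UMIs, 3 with ribosomal protein genes kept and 42 by DESeq2, and 0 to 12 without 1 animal.

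Samples of 1 replicate number did not deviate together (correlations of their deviations -0.23 to 0.17), so the numbers only name the animals. With the replicate block the 80 day comparison called 30 genes, term 167, WT 120 against 80 days 128, WT term against 120 days 2016 and CFTR-/- term against 120 days 2278. Numbers 5 and 6 occur only among CFTR-/- fetuses at 120 days, so the block also leaves these females out of the comparisons, as CFTR-/- males only does.

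The 147 named results were recomputed under 36 settings, where they applied. Of 2977 values, 2499 kept their direction and their side of the threshold, 444 kept the direction and no longer passed, 11 passed anew and 23 changed sign, 22 of these in results that had not passed. KCNQ1 in CFTR-/- 120 against 80 days (log2 0.91) was the 1 called result that changed sign, to -0.10 with library totals, and CEL there (0.65, not called) went to -0.38. CTRC there (-0.03, not called) went to 0.10 with at least 10 AQP8 UMIs, to 0.19 without cells under 1% mitochondrial UMIs, and from -0.32 to 0.40 without 1 animal. SYCN at 120 days between genotypes (0.04) went to -1.44 with the replicate block, to -1.51 with CFTR-/- males only and from -0.97 to 0.99 without 1 animal. CLPS there (0.07) went to -2.62, -2.26 and from -0.65 to 0.86, and CEL (-0.21) from -0.34 to 0.040 without 1 animal. At term SYCN between genotypes (0.39) went to -0.83 with CFTR-/- males only, which leaves 1 CFTR-/- lamb. Without 1 animal it ran from -0.015 to 0.75, and CLPS (-0.29) from -0.89 to 0.076. CEL in WT term against 120 days (-0.11) ran from -0.38 to 0.034 without 1 animal, and CEL in CFTR-/- term against 120 days (-0.37) went to 0.022 with the replicate block. The causes of these changes of sign were not tested. With 3 to 5 animals per group in the fits, many differences of log2 1 in the simulated counts were not found, so a gene that was not called may still differ. CFTR-/- replicate 1 at 80 days had 71 acinar cells, and its part in this was not tested.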
